A study of Homo sapiens with 32 samples.

Results

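S100 proteins are small proteins, and most of them bind calcium. Here 8 of their genes were followed over 8 groups of THP-1 cells: S100A12, S100A8, S100A9, S100A4, S100A6, S100A10, S100A11 and S100A13. They are 8 of 60107 genes in the tables and 8 of the 12406 genes tested, those whose mean deposited count reached 10, and were matched by symbol. The family was chosen by a measured value: S100A12 had been selected on its difference from WT in the KO and HA lines in these same libraries, and the other 7 genes were set beside it. The differences of the 8 genes from WT in KO and HA are therefore given as a description, without a p-value. The normalized count of S100A12 was 709.6 ± 85.7 (mean ± SD, n = 4) with wild-type ACLY and 676 ± 60.3 with S455A ACLY, but 3691 ± 465 without ACLY and 4425 ± 503 with inactive ACLY. S100A8 and S100A9 differed from WT by less and varied more between libraries. The other 5 genes differed by less than 1 log2 unit, as did S100A8 in HA.

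Most S100 proteins bind calcium through EF-hand motifs and change shape so that they can dock on target proteins. S100A8 and S100A9 pair as calprotectin, a major cytosolic protein of neutrophils and monocytes that also binds zinc and manganese, and S100A12 (calgranulin C) is a related protein of the same cells. Once released, these proteins act as danger signals through RAGE, the product of AGER, and through TLR4, the receptor for LPS. The other members are present in many cell types. S100A4 binds non-muscle myosin (MYH9), S100A6 binds CACYBP, S100A10 is the partner of annexin A2, S100A11 binds annexin A1, and S100A13 takes part in the release of FGF1 and IL1A.

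THP-1 is a human monocytic leukaemia cell line. ACLY, ATP-citrate lyase, makes cytosolic acetyl-CoA from citrate, the building block of fatty acids, sterols and histone acetylation, and it had been knocked out in the starting cells of all 8 groups. KO cells are the ACLY knockout, and the WT, HA and SA lines are knockout cells that received wild-type ACLY, H760A ACLY (catalytically inactive) or S455A ACLY (lacking a phosphorylation site) by lentiviral transduction from a vector with an EF promoter. Each line was untreated or had 100 ng/ml LPS, a bacterial cell wall component, for 3 h, as the labels give it (a paragraph of the study's methods gives a lower concentration), with 4 libraries per group and 32 in all. There was 1 line per genotype, the knockout clones are described as variable, and whether the KO cells were also transduced is not given in the sources used here, so genotype and line cannot be told apart. Nothing in the labels says that the 4 libraries of a group came from separate cultures, so p-values measure the spread between these samples, which may be technical.

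The library kit takes reads from transcript 3′ ends, which leaves counts free of a length factor, and the libraries held 6504099 to 14750815 reads on genes. All 10 monocytic markers checked had means of 10 or more, with LYZ the highest, and the T cell, erythroid, epithelial and fibroblast markers were all below 10. Of 4 B cell markers 2 were above it, and the highest, PAX5, was called higher in KO against WT by 1.70 without LPS and 1.99 with LPS (log2; adjusted p = 0.00205 and 0.000282) and in KO against HA without LPS by 2.49 (adjusted p = 0.000347). The summed count of the 4 B cell markers was 143 to 199 in KO and 105 to 218 in KO LPS, against 57.9 to 105 in the WT libraries and 71.2 to 109.9 in those of HA, with and without LPS, and its part in the results was not tested. The normalized count of ACLY was 117, 101, 90.7 and 97.1 in the WT libraries and 97.5, 107, 82.4 and 67.2 in KO, which overlap. After LPS the HA libraries (60.3 to 88.3) lay below the WT libraries (97.1 to 124) and the SA libraries (95.8 to 329), and the KO libraries (60.3 to 99.9) overlapped those of WT. The position of the knockout edit is not given in the sources used here, and reads from the 3′ end outside an edit do not check it. The libraries of a group also differed from each other along 1 main direction, which held 52.1% of the within-group variance over 12395 genes that are not S100 genes. On it, the library with the highest score in each group, from 35.0 to 143.7, lay above the other 24, which lay between -50.4 and 19.1. In untreated HA and SA the next library was not far below, at 19.1 against 35.0 and 12.7 against 36.2. These 8 libraries were replicate 3 of WT, WT LPS, KO and KO LPS and replicate 1 of HA, HA LPS, SA and SA LPS, and the SA LPS library had the highest score. At a common depth they had 13106 to 16138 genes detected, against 15630 to 16832 in the other 24. They are shown as triangles in the plots, values without them are given beside some of the results they touch, and their part in the results was not tested.

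All 8 genes lie on chromosome 1 (GENCODE 44, GRCh38), as do 17 of the 21 S100 genes in the tables. S100A12 lies at chr1:153373711-153375621 on the minus strand, between S100A9 at chr1:153357854-153361023 on the plus strand and S100A8 at chr1:153390032-153391073 on the minus strand. To set S100A12 beside its 2 nearest relatives on the chromosome, the 250 bases before each RefSeq start (GRCh38.p14) are shown 5′ to 3′ on the gene's own strand, with matches to 6 motif spellings in capitals. The windows are chr1:153375622-153375871 for S100A12, chr1:153391189-153391438 for S100A8, whose RefSeq start lies 115 bases before that of GENCODE, and chr1:153357604-153357853 for S100A9.
S100A12: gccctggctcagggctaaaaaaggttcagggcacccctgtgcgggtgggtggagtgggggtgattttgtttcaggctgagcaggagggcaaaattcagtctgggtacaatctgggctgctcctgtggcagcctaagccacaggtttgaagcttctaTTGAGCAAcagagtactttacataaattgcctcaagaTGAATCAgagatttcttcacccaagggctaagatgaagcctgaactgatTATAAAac
S100A8: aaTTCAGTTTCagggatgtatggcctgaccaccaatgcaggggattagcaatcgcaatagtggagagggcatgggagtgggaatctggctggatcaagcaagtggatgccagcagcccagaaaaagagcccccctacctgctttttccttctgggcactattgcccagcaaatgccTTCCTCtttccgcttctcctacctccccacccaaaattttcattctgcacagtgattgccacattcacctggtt
S100A9: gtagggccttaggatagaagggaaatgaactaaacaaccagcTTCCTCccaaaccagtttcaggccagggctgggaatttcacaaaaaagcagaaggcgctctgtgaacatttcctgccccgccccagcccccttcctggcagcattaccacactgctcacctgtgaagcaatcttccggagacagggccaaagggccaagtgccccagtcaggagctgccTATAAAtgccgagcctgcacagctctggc
Both strands were searched for C/EBP (TTNNGCAA), PU.1 (GAGGAA), AP-1 (TGANTCA), the TATA box (TATAAA), STAT (TTCNNNGAA) and ISRE (GAAANNGAA) spellings. The S100A12 window held TTGAGCAA, a C/EBP match 94 to 87 bases before the start, an AP-1 match at 57 to 51 and a TATA match at 8 to 3. The S100A8 window held a PU.1 match at 74 to 69 and an ISRE match at 248 to 240, and the S100A9 window a PU.1 match at 208 to 203 and a TATA match at 29 to 24. No matches of different motifs overlapped in these 3 windows. Of the other 5 promoters, that of S100A4 held a TATA match and that of S100A11 a C/EBP match. Among 35116 promoter windows of this length, 9.05% held the C/EBP spelling, 23.6% PU.1, 6.57% AP-1, 10.7% TATA, 6.57% STAT and 6.88% ISRE. A match describes the letters and is not a binding site shown in these cells.

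S100A12 differed between the lines by more than the spread of any group. Its normalized counts were 739, 632, 818 and 650.2 in the untreated WT libraries and 716, 689, 588 and 712 in SA. In KO they were 4230.1, 3139, 3859.7 and 3535, and in HA 4015, 4416, 4133 and 5135. The lowest KO library thus lay above the highest WT and SA libraries, and the KO and HA ranges overlapped.

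After LPS the order was the same for these lines. The WT LPS libraries had 651, 624, 680.0 and 685, and SA LPS 621, 551, 613 and 624. KO LPS had 3129, 3192, 3699.8 and 3555, and HA LPS 4679, 3576, 4339.7 and 4739. From the highest mean to the lowest the groups ran HA, HA LPS, KO, KO LPS, WT, SA, WT LPS and SA LPS. Neighbours in this order overlapped except at 2 places, between KO LPS and WT and between WT LPS and SA LPS, where the lowest WT LPS library (624.305) was next to the highest SA LPS library (624.174). Against WT, the log2 difference on the log2(normalized count + 1) scale was 2.38 (SE 0.116) in KO and 2.64 (SE 0.116) in HA without LPS, or 5.19-fold and 6.23-fold. With LPS it was 2.36 in KO and 2.71 in HA. Among the log2 differences of the 12406 genes, S100A12 stood 56th and 58th from the highest in KO, without and with LPS, and 20th and 11th in HA. These are the contrasts on which S100A12 was selected, so its ranks are a description.

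**Figure D1:**
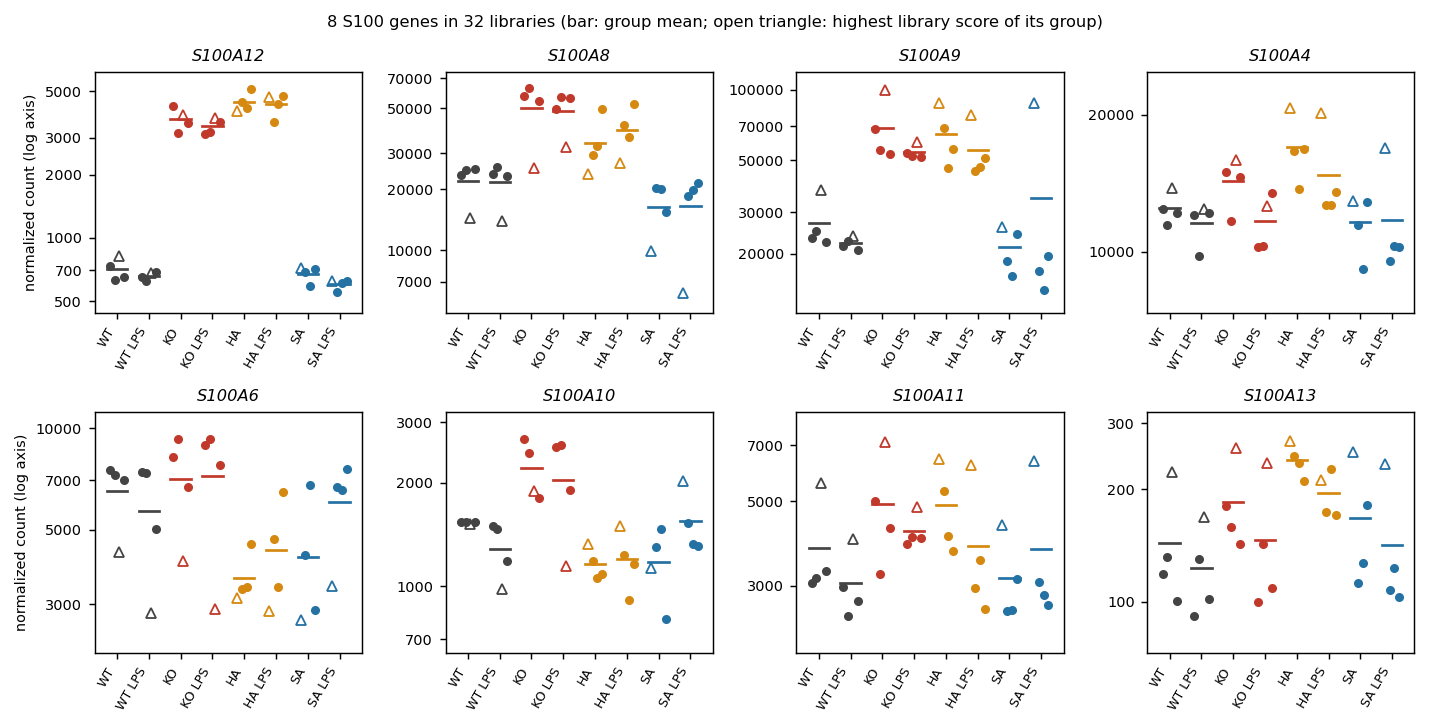
Normalized count of each of the 8 genes in the 32 libraries (log axis), by group; circles and triangles are libraries, a triangle the library with the highest score of its group, and the bar the group mean. For S100A12 the KO and HA libraries, from 3129 up, lie above every WT and SA library, of which the highest is at 818.

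S100A12 was also the steadiest member. Its SD within groups was 0.144 on the log2 scale, at percentile 1.8 of the genes tested, against 0.515 for S100A8 and 0.522 for S100A9. Without the 8 libraries of highest score the SDs lay closer together. They were 0.148 for S100A12, 0.166 for S100A4, 0.186 for S100A11, 0.189 for S100A9 and 0.200 for S100A8. Leaving out the 8 libraries named above gave log2 differences from WT of 2.42 and 2.33 in KO, without and with LPS, and 2.75 and 2.68 in HA. By count, S100A12 was not the family's most abundant transcript: it ranked 763 in mean level among the genes tested, S100A9 15, S100A8 25, S100A4 91, S100A6 243, S100A11 390, S100A10 1168 and S100A13 6492. Together the 8 genes took 0.579% to 1.7% of the reads of a library.

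S100A8, a subunit of calprotectin, had normalized counts of 23430.5, 24863, 14462 and 25181 in WT and 57002, 62674, 25229.8 and 54313 in KO. In HA the counts were 23769, 29545, 32625 and 49428, and in SA 9955, 20134, 19956 and 15505. The KO libraries lay above all WT libraries, while replicate 1 of HA, at 23769, lay within the WT range. After LPS the WT libraries ran from 13967 to 25655, those of KO from 32244 to 56829, those of HA from 26740.3 to 52213 and those of SA from 6175 to 21484. In all 4 lines after LPS the lowest library was the one with the highest score. The log2 difference from WT was 1.13 (SE 0.347) in KO and 0.60 (SE 0.347) in HA, and after LPS 1.17 and 0.85. Neighbours in the order of the 8 group means all overlapped for S100A8.

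S100A9, its partner, had 23325, 24899.7, 37289.6 and 22352 in WT and 68012, 55282, 99361 and 53462 in KO. In HA it had 87904, 68936, 46469.7 and 55692, and in SA 26123, 18616, 16070.0 and 24280.4. All KO and all HA libraries were above the WT libraries, and those of SA were not. After LPS, the WT libraries ran from 20809 to 23707, KO from 51754 to 59693 and HA from 45162 to 78425, again without overlap of KO or HA with WT. SA LPS had 88278, 16902, 14015 and 19563, of which the first exceeded 3 of the 4 KO libraries without LPS. The log2 difference from WT was 1.34 (SE 0.353) in KO and 1.25 (SE 0.353) in HA, and 1.29 and 1.29 after LPS.

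Within groups, the counts of S100A8 and S100A9 went opposite ways along the library score described above. The correlation of each with the library score over the 32 libraries, as deviations from the group mean, was -0.97 for S100A8 and 0.90 for S100A9. These points share library preparation and depth, and the values are a description. The ratio of S100A9 to S100A8 ran from 1.70 to 14.3 in those 8 libraries and from 0.709 to 2.33 in the other 24. Other members followed the same score, with correlations of 0.91 for S100A11, 0.82 for S100A13, 0.79 for S100A4 and -0.85 for S100A6. Those of S100A12 and S100A10 were 0.32 and -0.07. Many other genes followed the score too: 1053 genes had a correlation below -0.9 and 591 had one above 0.9. Among all these correlations S100A8 stood at percentile 1.5, S100A6 at 13.5 and S100A4 at 87. S100A13 stood at 88.4, S100A9 at 95.1 and S100A11 at 96.2. The opposite directions of S100A8 and S100A9 were thus not particular to this pair or to the family. The sum of S100A8 and S100A9 had a smaller coefficient of variation than either gene in the 4 untreated groups and in HA LPS, but not in WT LPS (10.2% against 5.73% for S100A9), KO LPS (7.5% against 6.8% for S100A9) or SA LPS (56.8% against 42.3% for S100A8). It ran from 46755 to 51752 in WT and 36026 to 39786 in SA, and from 107774 to 125014 in KO and 79095 to 111673 in HA, so that KO and HA lay apart from WT and SA. In SA LPS it was 33789 to 94453, and the highest of these is replicate 1. Without the 8 libraries the SD of S100A8 within groups was 0.200 and that of S100A9 0.189, and the log2 differences from WT were 1.24 (KO) and 0.57 (HA) for S100A8 and 1.32 (KO) and 1.26 (HA) for S100A9 without LPS.

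**Figure D2:**
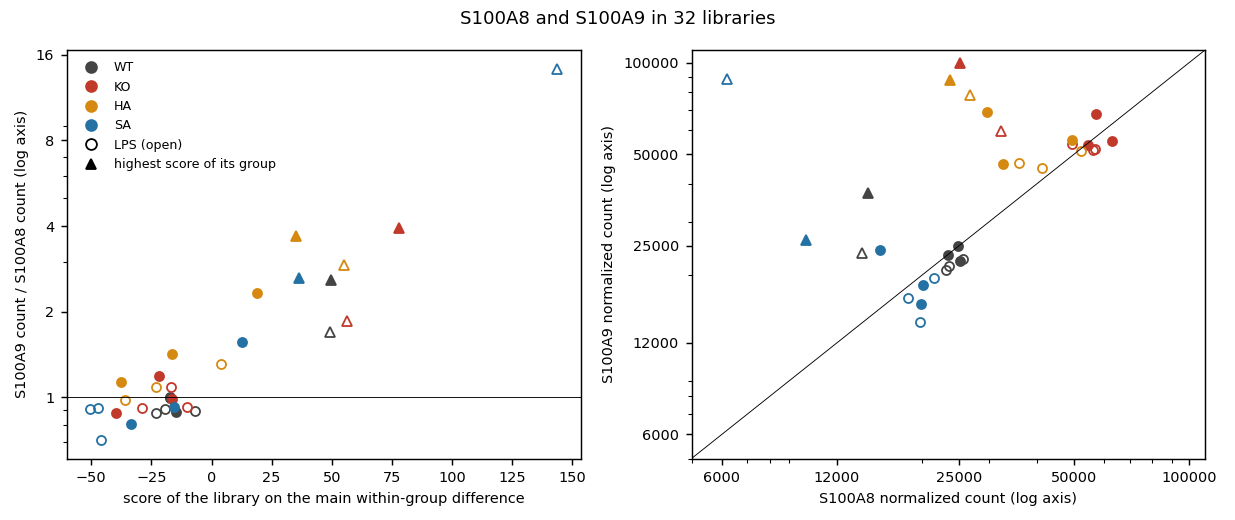
Left, ratio of S100A9 to S100A8 normalized counts (log axis) against the score of each of the 32 libraries on the main within-group difference; right, S100A9 against S100A8 normalized counts (log axes), with the line of equal counts. Triangles, the highest score of each group, have ratios from 1.70 to 14.3, and most other libraries lie near the line.

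As a share of S100A8 plus S100A9, S100A12 was 1.45 ± 0.156% (SD, n = 4) in WT, 3.11 ± 0.319% in KO, 4.55 ± 0.703% in HA and 1.8 ± 0.145% in SA. After LPS it was 1.53 ± 0.216%, 3.32 ± 0.493%, 4.6 ± 0.463% and 1.39 ± 0.504%. This share was larger in KO and HA libraries than in WT libraries. Because S100A12 was selected on these contrasts, that difference is a description and no test. Between HA and KO, whose values were seen before this share was chosen, the HA means were higher by 1.44 percentage points without LPS and 1.28 points with LPS, and all HA libraries were above all KO libraries both times. This is given as a description, without a test.

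Among the other 5 genes, none reached a log2 difference of 1 from WT. S100A10, the annexin A2 partner, had 1540.2, 1535, 1519 and 1533 in WT and 2677, 2446, 1893 and 1807 in KO. It had 1327, 1180.1, 1054 and 1082 in HA, where every library was below the WT libraries. The 4 WT libraries were between 1519 and 1540.2, and KO and HA lay on opposite sides of them. The SA libraries, at 1132, 1299, 1466 and 801, also lay below them, so the low side was not particular to HA. After LPS the WT libraries spread wider, from 981 to 1498. The log2 difference was 0.51 (SE 0.217) in KO, -0.41 (SE 0.217) in HA and -0.42 (SE 0.217) in SA. With LPS it was 0.62, -0.09 and 0.27.

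S100A6, which binds CACYBP, had 7500.5, 7254, 4278 and 7023 in WT, with the lowest value in the library of the highest score. In KO it had 8192, 9312, 4039 and 6667, and in HA 3128, 3336, 3386 and 4534. The ranges of KO and WT overlapped, and so did those of HA and WT. Its log2 difference from WT was 0.08 in KO and -0.84 in HA without LPS (SE 0.37), and 0.32 and -0.35 with LPS. The SA line, with active ACLY, was also low without LPS, at 2696, 4214, 6776 and 2880, overlapping WT. Its log2 difference from WT was -0.72 (SE 0.37) without LPS and 0.13 with LPS.

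S100A4, the myosin-binding member, had group means from 11599 to 16986, with HA the highest. Its log2 difference from WT was 0.19 in KO and 0.43 in HA without LPS, and 0.00 and 0.33 with LPS. S100A11, which binds annexin A1, differed by 0.37 in KO and 0.39 in HA, and by 0.47 and 0.26 after LPS, with an SE of 0.283. S100A13, the least abundant member, had 119, 131, 223 and 101 in WT and 268, 246, 235 and 209.8 in HA. Its highest WT library, replicate 3, lay within the HA range, and the log2 difference was 0.80 (SE 0.297) in HA and 0.40 in KO. S100A4 overlaps S100A3 on the same strand and S100A13 overlaps S100A1 on the opposite strand, and S100A3 and S100A1 had 57 and 2 reads over all libraries.

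Counted over the members, the KO libraries did not overlap the WT libraries for 4 of 8 genes without LPS, all higher, and for 3 of 8 with LPS, all higher. Over all genes tested 12% and 13.9% did not overlap in these comparisons, and 2.9% and 3.47% were called at an adjusted p below 0.01. For HA, 3 of 8 members did not overlap WT without LPS, with 2 higher and S100A10 lower, and 5 of 8 with LPS, all higher. The shares of all genes were 17.6% and 13.5%, and 2.52% and 2.02% were called. Nothing is read from these counts, since S100A12 was selected on these contrasts. Without the 8 libraries the members without overlap numbered 5 and 6 in KO and 8 and 5 in HA, where 29.5%, 32.3%, 43.9% and 34.6% of all genes did not overlap between the 3 libraries left in each group.

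**Figure D3:**
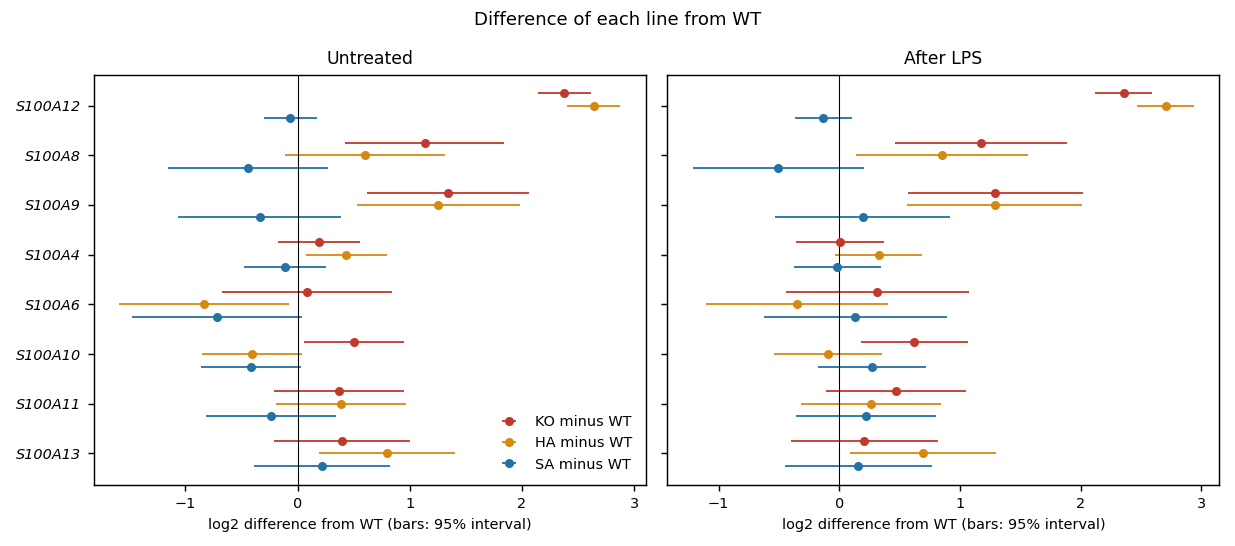
Log2 difference of KO, HA and SA from WT for each of the 8 genes, without LPS (left) and after LPS (right), with 95% intervals from the limma fit. S100A12 is the member with the highest difference in KO and HA, and its SA intervals include 0.

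SA against WT asked whether the S455A line differed from the wild-type line, a contrast not used to choose the genes. No member passed limma's test, without LPS or with it, and none had an unadjusted p below 0.05. For S100A12 the log2 difference was -0.07 (95% interval -0.30 to 0.17, adjusted p = 0.998) without LPS and -0.13 (-0.37 to 0.10, adjusted p = 0.841) with LPS. S100A8 gave -0.44 (-1.16 to 0.27) and -0.50 (-1.22 to 0.21), and S100A9 -0.34 (-1.06 to 0.39) and 0.19 (-0.53 to 0.92). Without the 8 libraries S100A9 after LPS was at -0.38, with the other sign. Replicate 1 of SA LPS, with an S100A9 count of 88278, is among those left out. Over the 12406 genes limma called 0% in both, with 445 and 646 genes at an unadjusted p below 0.05, and limma-voom called 0 genes in either. When the library score entered the fit as a covariate, S100A8 after LPS passed at an adjusted p of 0.00522 with its log2 difference of -0.50, as did 1.89% of all genes. The score is built from the within-group deviations of these same libraries. As a covariate it cannot move the difference and only takes out spread, so this p-value is a description and no separate test. SA and WT libraries did not overlap for S100A10 without LPS and for S100A12 with LPS, both lower in SA, which is 1 of 8 members each time, against 4.22% and 2.61% of all genes.

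The LPS response asked whether 3 h of LPS moved these genes in each line. Outside the family, CEBPD, a C/EBP transcription factor, rose with LPS by 1.04 in KO (adjusted p = 0.000405) and 0.93 in HA (adjusted p = 0.00197) on the log2 scale, and the KO call was lost when only the groups compared were fitted. No S100 gene passed the test in any line, none had an unadjusted p below 0.05, and limma-voom called 0 members. Over all genes limma called 0.25% in WT, 0.58% in KO, 0.403% in HA and 0.492% in SA. For S100A12 the log2 difference of LPS against untreated was -0.10 (95% interval -0.33 to 0.14) in WT and -0.12 (-0.35 to 0.12) in KO. It was -0.03 (-0.27 to 0.21) in HA and -0.16 (-0.40 to 0.07) in SA. For S100A8 and S100A9 the intervals were wider, reaching from -1.03 to 1.00 over the 4 lines. S100A9 in SA was at 0.28, and at -0.22 without the 8 libraries. Over the 8 members the log2 responses lay between -0.28 and -0.03 in WT and between -0.38 and 0.01 in KO. The HA responses lay between -0.40 and 0.22 and those of SA between -0.26 and 0.59.

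No member passed limma's interaction test for a difference of its LPS response from that in WT. The background was 0.00806% of genes called for KO minus WT, and 0% for HA minus WT and SA minus WT, with 142 and 457 genes at an unadjusted p below 0.05. Limma-voom called 0 members in all 3. For S100A12 the difference from the WT response was -0.02 (-0.35 to 0.32) in KO, 0.07 (-0.27 to 0.40) in HA and -0.07 (-0.40 to 0.27) in SA. S100A10 was the single member with an unadjusted p below 0.05, in SA minus WT, at 0.69 and an adjusted p of 0.9975.

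**Figure D4:**
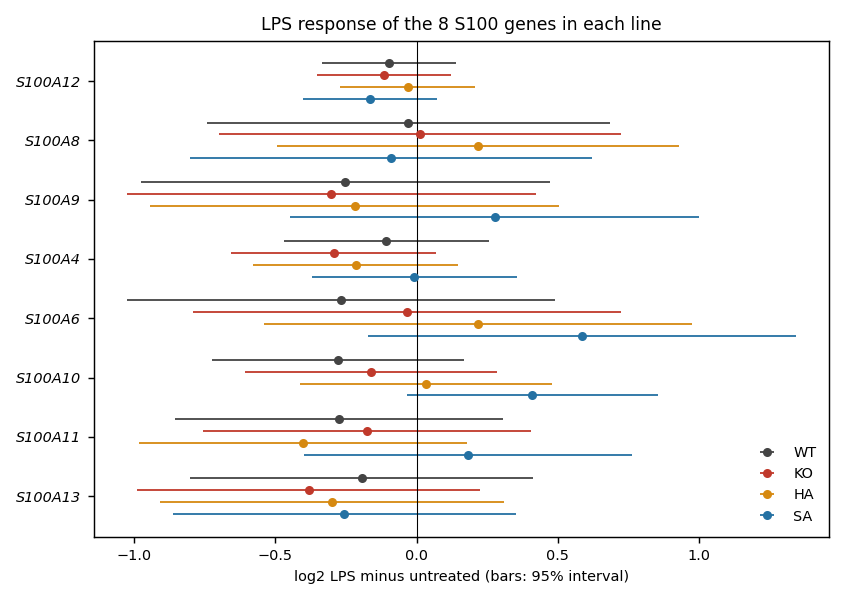
Log2 difference of LPS against untreated cells for each of the 8 genes in WT, KO, HA and SA, with 95% intervals from the limma fit. The intervals of S100A12 are the narrowest, and every interval in the plot includes 0.

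KO against HA compared absent with catalytically inactive ACLY. No member passed at an adjusted p below 0.01, where limma called 0.226% of all genes without LPS and 0.00806% with LPS, and limma-voom called 0 members. Of the 8 members 3 had an unadjusted p below 0.05 without LPS (S100A12, S100A6 and S100A10) and 2 with LPS (S100A12 and S100A10), as had 10.4% and 10.5% of all genes. S100A10 was higher in KO by 0.91 (SE 0.217) on the log2 scale, with all KO libraries above all HA libraries and an adjusted p of 0.0576, and by 0.72 (SE 0.217) after LPS (adjusted p = 0.193). Without the 8 libraries these were 1.04 (adjusted p = 0.000844) and 1.08 (adjusted p = 0.00149), under the limit, in a setting where 8.18% and 1.95% of all genes passed. Those libraries were picked by their score, and leaving them out narrowed the spread within groups (S100A10, SD from 0.315 to 0.243). The adjusted p-values without them, here and for S100A6 and S100A8 below, are a description and no separate test. S100A6 was at 0.92 (adjusted p = 0.399), and without the 8 libraries at 1.10 with an adjusted p of 0.00296. S100A8 was at 0.53 (adjusted p = 0.567), and without the 8 libraries at 0.68 with an adjusted p of 0.00712. S100A12 was at -0.26 (-0.50 to -0.03, adjusted p = 0.456) and -0.35 (-0.58 to -0.11, adjusted p = 0.243), lower in KO. On the deposited scale, where each line was normalized alone, it was at -0.50 (adjusted p = 0.0216) and -0.60 (adjusted p = 0.00637), past the limit after LPS, where 0.484% of all genes passed.

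Of the 13 other S100 genes in the tables, 6 had no read in any library and 5 had reads but stayed under a mean of 10, the highest at 4.38. The remaining 2 were tested. The WT, KO and HA libraries had 23.3 ± 10.8, 11.7 ± 6.76 and 11.5 ± 8.37 (SD, n = 4) for S100P and 18.3 ± 8.88, 21.3 ± 5.63 and 10.6 ± 9.61 for S100A2. These are low counts whose libraries overlapped between lines. In the 500 kb on either side of S100A12, 60 genes are annotated, of which 11 were tested, 5 of them not S100 genes (CHTOP, SNAPIN, ILF2, INTS3 and SLC27A3). Without LPS the log2 differences of these 5 from WT ran from -0.25 to 0.30 in KO and from -0.58 to 0.49 in HA, and their lowest adjusted p by limma over the 6 comparisons of a line with WT was 0.193.

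The genes whose group means ran closest to those of S100A12 were found by the root mean square difference of their centred log2 profiles over the 8 groups. They were TMEM136 (0.283), CAV1, caveolin-1 (0.331), AC017002.3 (0.353), HHLA2 (0.366) and MGLL, monoglyceride lipase (0.393). The closest to its mirror image were SLC38A1, an amino acid transporter (0.190), VAT1L (0.270) and BEX1 (0.307). MGLL counts were 98.9 ± 25.7 for WT, 582 ± 221 for KO and 361 ± 79.1 for HA, and those of SLC38A1 were 610.2 ± 42.3, 96.2 ± 28.7 and 118 ± 33.0 (mean ± SD, n = 4, no LPS). These levels follow from the choice of the genes and have no test. Of the S100 genes S100A9 was the nearest (0.646, rank 49) and then S100A8 (0.758, rank 84). S100A13 (1.08), S100A11 (1.11) and S100A4 (1.15) ranked 1002, 1317 and 1842, and S100A10 (1.26) and S100A6 (1.38) ranked 4529 and 8123, where the median distance of all genes was 1.31. Ranking by Pearson's correlation in place of the distance kept 1 of the 5 genes, HHLA2, and the deposited scale kept 5 of 5.

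**Figure D5:**
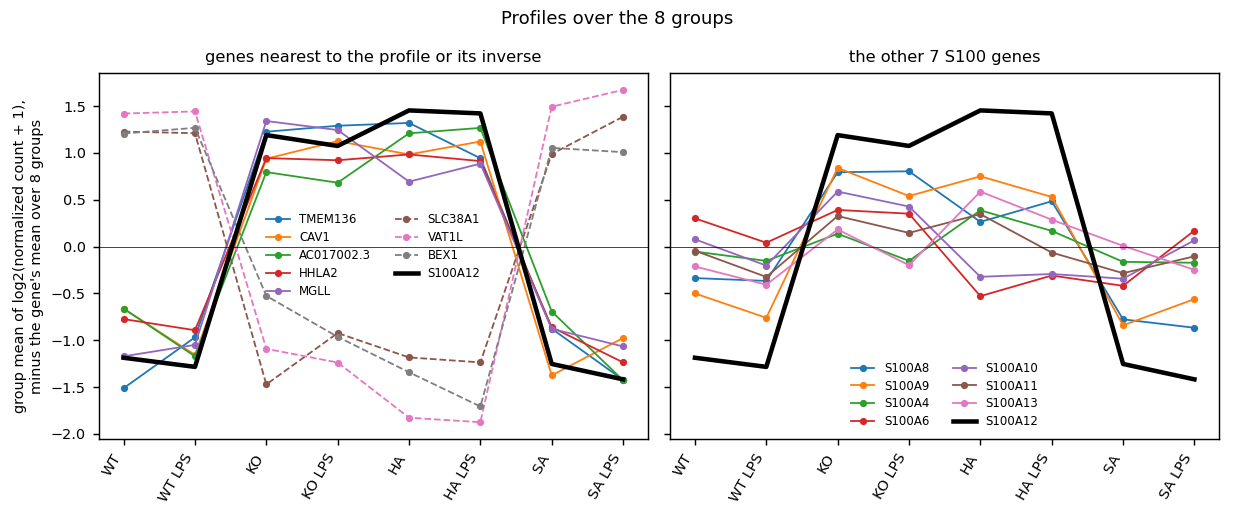
Group means of log2(normalized count + 1), each gene centred on its mean over the 8 groups, for S100A12 (black) with the 5 genes nearest to its profile and the 3 nearest to the inverse (left, dashed) and with the other 7 S100 genes (right). S100A9 and S100A8 lie above 0 in all 4 KO and HA groups and below 0 in the 4 WT and SA groups.

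Receptors and partners of S100 proteins were mostly without a call. Of 23 listed, 19 were tested, and MCAM, FGF1, IL1A and SYT1 were under the filter. In KO 2 rose and 0 fell without LPS, and 1 rose and 1 fell with LPS, and in HA 1 rose and 1 fell both times. Over all genes 2.9% and 3.47% were called in KO, and 2.52% and 2.02% in HA. The median log2 difference of the 19 was 0.23 and 0.10 in KO and -0.05 and -0.18 in HA, against -0.03, -0.01, -0.02 and -0.03 over all genes. AGER, which encodes RAGE, was at a mean of 30.1 and its log2 difference was 0.01 (SE 0.349) in KO and 0.41 in HA. TLR4 was at 15.5, with 0.48 (SE 0.657) and -0.34. Neither passed the test in any line against WT. CD14, the co-receptor of TLR4, was higher in untreated KO cells by 1.66 (SE 0.256, adjusted p = 6.54e-05). CACYBP, the partner of S100A6, fell by 0.76 in HA (adjusted p = 0.00774) and CD33, a receptor of S100A9, fell by 0.73 in KO after LPS (adjusted p = 0.00474), and both calls were lost when only the groups compared were fitted and on leaving out any of 10 (CACYBP) or 6 (CD33) libraries. After LPS, CD14 fell by 1.37 in HA against WT (adjusted p = 0.00113), a call lost under 3 settings. Against untreated cells of the same line, LPS-treated cells had lower CD14: it fell by 2.07 in KO, fell by 1.71 in HA and fell by 1.43 in SA (adjusted p = 5.95e-06, 0.000147 and 0.00169), the HA and SA calls lost when only the groups compared were fitted. CD14 did not pass in the LPS response of WT, and no other gene of the list passed in an LPS response. Between KO and HA without LPS, CD14 was higher in KO by 1.85 and CYBB, a subunit of the NADPH oxidase that calprotectin assists, by 1.15, and no gene was called there when only those groups were fitted. In SA against WT none of the 19 passed.

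Of 15 myeloid transcription factors 14 were tested, and CEBPE was under the filter. In KO 1 rose without LPS and 2 rose with LPS, among them CEBPD by 1.04 (adjusted p = 0.000105) with LPS. Of all genes 2.9% and 3.47% were called there. None of the 14 passed in HA or SA against WT. SPI1, which encodes PU.1, differed by 0.13 (SE 0.337) in KO and HA, and CEBPA by -0.61 (SE 0.548) in KO and -0.71 in HA, without passing the test. The median of the 14 was 0.27 and 0.47 in KO, without and with LPS, and -0.13 and -0.12 in HA. Over all genes it was -0.03 and -0.01 in KO and -0.02 and -0.03 in HA.

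Of 24 maturation genes of monocytes and granulocytes 22 were tested, with 2 under the filter. In KO 3 rose and 2 fell with or without LPS, and in HA 2 rose and 1 fell without LPS and 2 rose and 2 fell with LPS. The shares of all genes called were 2.9% and 3.47% in KO, without and with LPS, and 2.52% and 2.02% in HA. LYZ, lysozyme, rose by 1.89 (SE 0.338, adjusted p = 0.000425) in KO and 1.62 (adjusted p = 0.0032) in HA, and MNDA, a nuclear antigen of myeloid cells, by 1.35 (adjusted p = 1.55e-05) and 0.79 (adjusted p = 0.00999). VCAN, the matrix proteoglycan versican, rose in KO by 2.06 (SE 0.275, adjusted p = 6.91e-06). Genes of the same list went the other way: FCN1, ficolin-1, fell by 4.26 in KO (SE 0.809, adjusted p = 0.000866), and CFD, complement factor D, fell by 1.23 in KO (adjusted p = 6.97e-07) and fell by 0.79 in HA (adjusted p = 0.000798). ITGAM, an integrin subunit, fell by 1.41 in HA after LPS (adjusted p = 0.00264). Each HA call named here was lost under at least 1 other setting. None of the 22 passed in SA against WT, in an LPS response or between KO and HA. The median of the 22 was 0.17 in KO and 0.36 in HA without LPS, against -0.03 and -0.02 over all genes. In bulk libraries fewer cells of a kind and less RNA per cell cannot be told apart. The lists were chosen with results of these data known, and their counts are a description of the lists as written.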

How the data were processed

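RNA of 32 samples in 8 groups was measured by 3′ mRNA-seq. According to the methods, the authors trimmed reads with Bbduk, aligned them to GRCh38 with STAR, counted them with HTSeq-count and tested with DESeq2, and versions and the annotation release are not given in the sources used here. The deposited values are counts that the authors normalized by size factors within each line, written with decimal commas, which is no standard unit. Per library, 1 scale factor turned 100.0% of the non-zero values into whole reads (tolerance 0.05 reads), and these recovered reads (median 10247620 per library) were rescaled jointly over all 32 libraries by median-of-ratios factors over the 12406 genes tested (deposited mean of at least 10). Left out were 92 spike-in entries with 1 read in all. Counting error is a lower limit on the spread, since reads are not independent molecules.

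The log2(normalized count + 1) values were tested with limma 3.58.1 (eBayes with a trend, R 4.3.3) in 1 model of the 8 group means, in 15 comparisons, with Benjamini-Hochberg adjustment over all genes of a comparison and a limit of 0.01. A fold on this scale understates the change of low counts. The design assumed this log-scale test, so edgeR and DESeq2 were not run here, and limma-voom on the recovered reads was added. Scripts were tested on simulated data (Python 3.11.15).

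Groups and replicate numbers came from the labels. Same-numbered WT, WT LPS, KO and KO LPS libraries deviated from their group means together (correlations across genes from 0.12 to 0.72, all above 0.1), while those of HA and SA did not in every pair, so numbers pair samples only between WT and KO groups; the pairing comes from the data and not from the labels. The replicate block changed no call of a member in the LPS responses of WT and KO or in their difference. The library score is the main axis of the within-group deviations of genes that are not S100 genes.

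Named genes are the 8 members, the other S100 genes, the genes called in 3 lists (receptors and partners, myeloid transcription factors, maturation genes), and the 5 nearest and 3 inverse profiles. AGER, TLR4, SPI1 and CEBPA were named after their values were seen. Results of some genes of these lists are not reported here. Members and lists were chosen with earlier results of these data known. Positions are from GENCODE 44, which held 56104 of the 60107 identifiers, and promoter sequences from RefSeq GRCh38.p14.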

Additional observations from a re-analysis of the deposited data

Results flagged for a closer look

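In groups of 4 libraries, the highest or lowest value was set against the others, and a value was singled out where its gap to the nearest library, as a part of the group's range, exceeded the 95% critical value of Dixon's test. Of 64 member and group combinations 11 met this, and 9 of the 11 are the library with the highest score of its group. Chance gives about 1 in 20 for a single combination. The 64 read the same 32 libraries and are not independent, so their count was not set against chance.

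In WT, replicate 3 was the lowest for S100A8 (14460, others 23430 to 25180) and S100A6 (4278, others 7023 to 7501), and the highest for S100A9 (37290, others 22350 to 24900) and S100A11 (5565, others 3045 to 3291). In SA LPS, replicate 1 was the highest for S100A9 (88280, others 14010 to 19560), S100A4 (16900, others 9544 to 10320), S100A11 (6384, others 2675 to 3074) and S100A13 (233.9, others 102.6 to 123.1). In HA LPS, replicate 1 was the highest for S100A4 (20210, others 12650 to 13550). The other 2 were replicate 2 of SA LPS, lowest for S100A12 (550.9, others 613.1 to 624.2), and replicate 2 of WT LPS, lowest for S100A4 (9796, others 12020 to 12400). All are normalized counts on the joint scale, and the cause was not tested.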

How the results depend on the processing

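Of 88 member comparisons tested, 6 changed their side of the limit under any of 12 alternatives, and 0 did so when each of the 32 libraries was left out in turn. No difference that passed the limit in the main fit or an alternative changed sign. Signs of differences that stayed uncalled were not counted, and some changed. S100A9 in SA against WT after LPS went from 0.19 to -0.38 without the 8 libraries. Of 32 comparisons described without a test, 0 moved by more than the spread between replicates. The number of members called, 0 in each comparison, became 1 in SA against WT after LPS with the library score as covariate. In KO against HA without LPS it became 1 with the replicate block over all groups (S100A10, adjusted p = 0.00558, but 0.427 with the block in the compared groups alone, and the numbers do not pair KO with HA), 3 without the 8 libraries and 3 with the score as covariate (S100A8, S100A6 and S100A10 each time), where 0.387%, 8.18% and 7.24% of all genes passed. In KO against HA after LPS it became 1 on the deposited scale (S100A12) and 1 without the 8 libraries (S100A10), where 0.484% and 1.95% of all genes passed. The replicate block changed no other call of a tested member. The cause of these changes was not tested. The analyses without 8 libraries, with the score as covariate and with limma-voom were chosen after seeing the data. Leaving out the 8 libraries and adding the covariate both take out spread along a score built from these same libraries. Calls gained in those settings are therefore no separate tests. The planned edgeR and DESeq2 tests were not run.

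Counts over all genes moved more. KO against WT without LPS went from 360 genes to 179 with only the groups compared, 724 with the block in those groups, 616 without the 8 libraries and 964 with the covariate, and with LPS from 430 to 1336, 868 and 1139 under the last 3. HA against WT went from 313 to 503 on the deposited scale, and to 196, 8, 2188 and 2886 under those 4, and with LPS from 250 to 133, 7, 585 and 1390. SA against WT went from 0 to 1 without a filter and 19 with the covariate, and with LPS from 0 to 235 with the covariate. LPS responses (31, 72, 50 and 61 genes in WT, KO, HA and SA) ran from 3 to 214 over the alternatives that moved them, KO against HA from 0 to 1015 without LPS (28) and 0 to 609 with LPS (1), where limma-voom gave 25 and 14. The difference of LPS responses between KO and WT went from 1 to 2 with the covariate. Relative to WT, the deposited scale lies -0.10 (KO), 0.15 (HA) and 0.26 (SA) log2 units from the joint scale.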
